A study of Mus musculus with 7 samples.

Results

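The visual cycle of the retinal pigment epithelium was examined through 7 genes, Stra6, Lrat, Rpe65, Rdh5, Rdh10, Rlbp1 and Rgr, out of 18193 genes with a symbol of their own on the array. The genes were taken by name, as all probe sets that the platform annotation pairs with one of these symbols and no other. That gave 9 probe sets, 2 each for Lrat (1444487_at, the brighter, and 1421345_at) and Rdh10 (1460632_at, the brighter, and 1426968_a_at). The others were 1422723_at for Stra6, 1450197_at for Rpe65, 1418808_at for Rdh5, 1418310_a_at for Rlbp1 and 1422832_at for Rgr. A further probe set, which the annotation shares between Rdh5 and Bloc1s1, was left out of the 9. Signals came from laser-captured lens epithelium of 28-day-old mice on a C57Bl/6 background, 1 Affymetrix array per lens. SPARC-null (KO) animals lack the matricellular glycoprotein SPARC, and wild-type (WT) animals were their littermates, all from 1 litter. The 4 KO lenses came from 3 mice, both eyes of animal 1 (1L and 1R) and the left eyes of animals 4 and 7 (4L and 7L). The 3 WT lenses were the left eyes of animals 2, 5 and 6 (2L, 5L and 6L). KO animal 7 was male and the other 5 animals were female. Replication was counted over animals, with the mean of 1L and 1R standing for KO animal 1 (n = 3 KO and 3 WT animals).

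The visual cycle regenerates the light-sensitive chromophore of photoreceptors. Pigment epithelium takes up retinol from the blood, esterifies it, isomerises the ester to the cis form, oxidises the product to cis-retinal and hands it back to the photoreceptors. Most enzymes of this pathway mark the pigment epithelium within the eye, while Rlbp1 and Rgr are also made by Müller glia of the retina. Lens epithelium is not known as a site of this cycle, and the retina and the pigmented epithelia of the eye lie near the lens in a section.

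Photoreceptor and pigment cell genes, and the lens gene Cryaa, had clear signal in every lens. Where these transcripts came from was not tested. Cryaa, a structural crystallin of the lens, had deposited signals of 29668 to 38201 in KO lenses and 19271 to 37940 in WT lenses. Foxe3, a transcription factor of lens epithelium, was weak, with 11.5 to 84.1 in KO lenses and 40.2 to 118 in WT lenses. It exceeded the highest bacterial control of its own array in 2 of 4 KO and 2 of 3 WT lenses. Gnat1, the rod transducin, had signals of 13063 to 20554 in KO lenses and 11809 to 21206 in WT lenses. All 18 measured photoreceptor markers and all 10 measured pigment cell genes lay above the highest bacterial control of any array, 45.5, in all 7 lenses. These bacterial controls have no target in mouse RNA and served as a gauge of background. Sparc itself had signals of 8.14 to 70.5 in KO lenses and 27370 to 49972 in WT lenses at its brightest probe set. Which part of the gene is deleted, and whether that probe set lies in it, is not given in what was used here. The ratio of Gapdh signal at the 3' over the 5' end, lower where RNA is more intact, was 9.88 to 15.9 in KO lenses and 3.75 (2L), 9.06 (5L) and 15.9 (6L) in WT lenses.

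The sequences before the transcription starts of 5 of the genes are given here because the first 4 of them had their highest signal in the same lens and the last had the opposite group difference. They are the 250 bases upstream of the start, 5′ to 3′ on the gene's own strand, from RefSeq (GRCm38.p6). Stra6 was also highest in that lens, and its 4 starts were searched but are not printed. Rdh10, highest in that lens only at its weaker probe set, had no entry among the starts. Capitals mark matches to TAATCC or its reverse complement GGATTA, the core bound by the homeodomain factors CRX and OTX2. They also mark the E-box CANNTG, a general pattern that does not tell which factor binds.
Rpe65, chr3:159598931-159599180, strand +: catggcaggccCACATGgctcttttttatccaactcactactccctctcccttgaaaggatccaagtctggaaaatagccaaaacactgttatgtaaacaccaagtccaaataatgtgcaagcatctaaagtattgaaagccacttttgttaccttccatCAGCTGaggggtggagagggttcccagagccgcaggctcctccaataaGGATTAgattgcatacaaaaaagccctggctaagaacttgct
Rgr, chr14:37049015-37049264, strand -: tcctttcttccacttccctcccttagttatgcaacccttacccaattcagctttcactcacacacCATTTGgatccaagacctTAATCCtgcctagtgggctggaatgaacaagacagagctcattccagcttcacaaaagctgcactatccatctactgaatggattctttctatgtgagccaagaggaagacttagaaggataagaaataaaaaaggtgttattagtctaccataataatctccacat
Lrat, chr3:82903975-82904224, strand -: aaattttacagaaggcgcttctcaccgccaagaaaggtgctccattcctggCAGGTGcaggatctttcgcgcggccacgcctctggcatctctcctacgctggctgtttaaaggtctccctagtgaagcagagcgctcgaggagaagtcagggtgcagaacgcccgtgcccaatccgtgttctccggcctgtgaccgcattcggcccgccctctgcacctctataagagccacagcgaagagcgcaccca
Rdh5, chr10:128919298-128919547, strand -: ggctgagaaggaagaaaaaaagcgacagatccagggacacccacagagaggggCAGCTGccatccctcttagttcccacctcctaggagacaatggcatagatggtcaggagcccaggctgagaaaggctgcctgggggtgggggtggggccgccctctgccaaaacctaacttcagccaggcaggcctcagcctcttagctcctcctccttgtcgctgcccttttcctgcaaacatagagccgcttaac
Rlbp1, chr7:79387028-79387277, strand -: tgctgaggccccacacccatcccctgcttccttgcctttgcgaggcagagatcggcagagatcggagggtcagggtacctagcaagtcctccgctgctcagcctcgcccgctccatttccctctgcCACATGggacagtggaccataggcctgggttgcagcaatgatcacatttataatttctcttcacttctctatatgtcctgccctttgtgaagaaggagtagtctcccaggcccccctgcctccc
The homeodomain core was present in Rpe65, 42 bases before the start, and in Rgr, 167 bases before it, and in neither Lrat, Rdh5, Rlbp1 nor any of the 4 Stra6 starts. Of 32851 RefSeq starts in the mouse, 6.25% had that core in a window of this length, searched on both strands. An E-box was present in the window of each of the 5 genes printed, but not at every Stra6 start. Of all starts 66.2% had one, so its presence is common. The E-boxes of Rpe65 read CACATG and CAGCTG, that of Rlbp1 CACATG, that of Rgr CATTTG, that of Lrat CAGGTG and that of Rdh5 CAGCTG. No match overlapped another. These matches describe the letters of the windows and do not show that a factor binds there. Of the 7 genes, 6 had an entry in the table of starts and were searched.

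No member passed the test between KO and WT animals. On the scale of log2(signal + 16), quantile normalized between arrays, 8 of the 9 probe sets had lower and 1 (Rlbp1) had higher values in KO, while 51.6% of all 45037 probe sets were lower in KO. Of the 9, 0 had an adjusted p under 0.05 in limma (0.00666% of all probe sets had one), and each had an adjusted p of 0.99988. At an unadjusted p under 0.05 there were 4 of the 9, against 4.06% of all probe sets. Lower values in KO accounted for 3 of them, Rpe65, Rgr and the weaker Lrat probe set (1.81% of all), and a higher value for 1, Rlbp1 (2.24% of all). Over the whole table such probe sets numbered 1011 higher and 817 lower in KO, a split that was 801 to 1092 with median centring and 1271 to 574 with the signals as deposited. The median log2 difference, KO minus WT, was -0.40 over the 9 probe sets and -0.01 over all probe sets. Since the genes were measured in the same lenses and 7 of the 9 probe sets peaked in one of them, they are not 9 separate observations of a difference. The genes were also chosen with earlier results of these data known. In tissue of mixed cells, fewer cells of a type and less RNA per cell cannot be told apart.

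**Figure D1:**
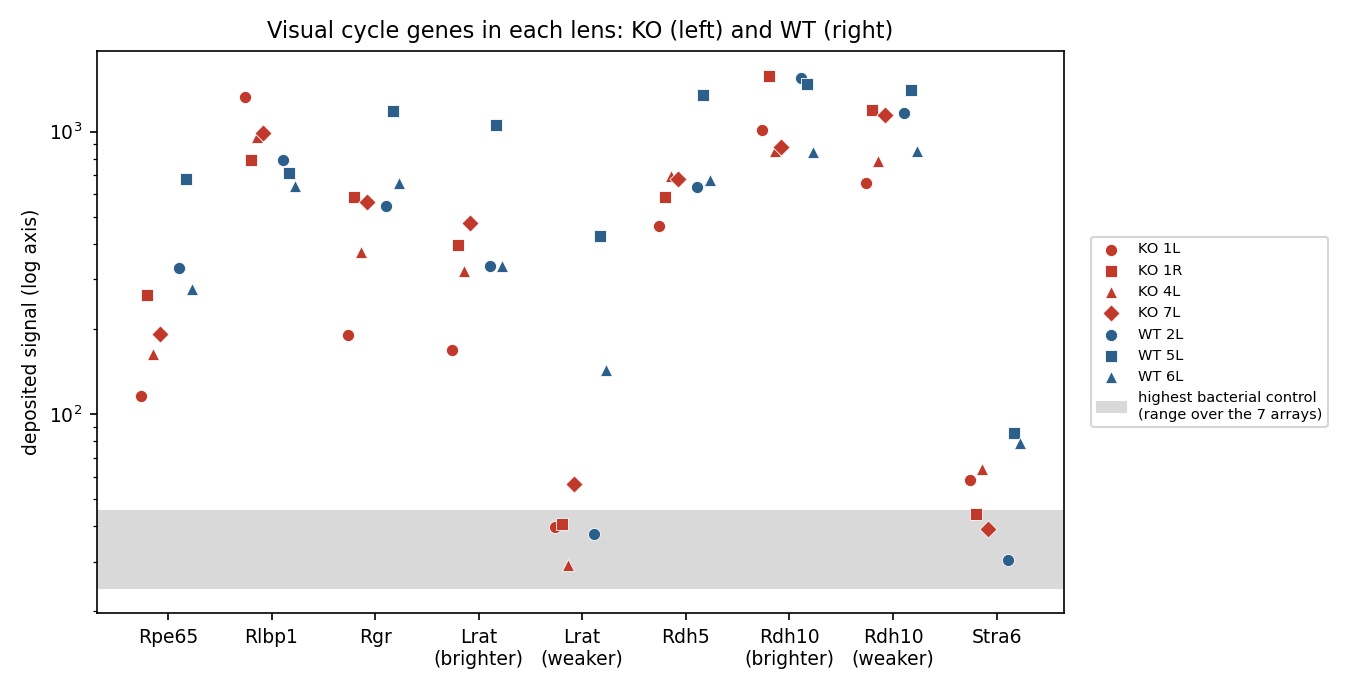
Deposited signal (vertical log axis) of the 9 probe sets in each lens, with KO lenses in red to the left and WT lenses in blue to the right of each gene; the grey band spans the highest bacterial control of each array, 24.3 to 45.5. WT lens 5L (blue square) is the highest point for Rpe65, Rgr, Rdh5, Stra6, both Lrat probe sets and the weaker Rdh10 probe set.

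Rpe65, the isomerohydrolase that turns all-trans retinyl ester into 11-cis-retinol and is the defining enzyme of the cycle, had deposited signals of 116 (1L), 264 (1R), 163 (4L) and 192 (7L) in KO lenses. In WT lenses its signals were 328 (2L), 679 (5L) and 278 (6L). The groups did not overlap, though the highest KO lens (1R) came close to the lowest WT lens (6L). KO and WT lenses did not overlap in either direction at 2 of the 9 probe sets, Rpe65 and Rlbp1, and at 5.28% of all probe sets (3.30% with KO higher, as at Rlbp1). The Rpe65 level was 7.57 ± 0.09 in KO and 8.70 ± 0.68 in WT animals (log2 scale; SD, n = 3). The log2 difference was -1.13 (SE 0.36, unadjusted 95% interval -1.94 to -0.33, limma unadjusted p = 0.0106, adjusted p = 0.99988), a 2.19-fold higher level in WT. The KO SD is over animals and leaves out the gap between 1L and 1R, which differed 2.27-fold in signal, about as much as the groups. Without WT animal 5 the log2 difference was -0.74 (unadjusted p = 0.0535).

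Lrat, the acyltransferase that stores retinol as the ester on which Rpe65 acts, was read by probe sets of unequal brightness. At the brighter one the signals were 168 (1L), 395 (1R), 321 (4L) and 474 (7L) in KO lenses, against 334 (2L), 1051 (5L) and 335 (6L) in WT lenses. The groups overlapped, and apart from 5L the WT lenses lay inside the KO range. Its log2 difference was -0.53 (SE 0.45, unadjusted p = 0.263), and without WT animal 5 it was 0.01. The weaker probe set had signals of 39.9 (1L), 40.9 (1R), 29.1 (4L) and 56.7 (7L) in KO lenses and 37.5 (2L), 427 (5L) and 143 (6L) in WT lenses. There, 1L and 4L did not exceed the highest bacterial control on their own array, so the size of the difference is not well resolved. That log2 difference was -1.58 (SE 0.66, unadjusted p = 0.0382) and -0.84 without WT animal 5 (unadjusted p = 0.154). The probe sets shared the high value of 5L but not the one of 6L, which stood apart only at the weaker.

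Rdh5, the 11-cis-retinol dehydrogenase that completes the cycle in pigment epithelium, had signals of 464 (1L), 585 (1R), 697 (4L) and 677 (7L) in KO lenses, against 637 (2L), 1349 (5L) and 675 (6L) in WT lenses. Again 5L was high, and the other WT lenses lay inside the upper part of the KO range. The level was 9.32 ± 0.24 in KO and 9.72 ± 0.63 in WT animals (log2 scale; SD, n = 3), which gave a log2 difference of -0.40 (SE 0.32, unadjusted 95% interval -1.12 to 0.32) that was -0.04 without WT animal 5. The probe set shared with Bloc1s1 ran from 1096 to 2646 in KO lenses and from 1135 to 2177 in WT lenses, with a log2 difference of 0.04 (SE 0.35).

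Rdh10, a retinol dehydrogenase that also makes the retinal from which embryos form retinoic acid, did not follow the high value of 5L at its brighter probe set. Its signals there were 1016 (1L), 1568 (1R), 852 (4L) and 880 (7L) in KO lenses and 1550 (2L), 1468 (5L) and 843 (6L) in WT lenses. Lens 1R was the highest and 6L the lowest, and both groups spanned nearly the whole range. The log2 differences were -0.33 (SE 0.27) at the brighter and -0.26 (SE 0.24) at the weaker probe set, with unadjusted p of 0.256 and 0.321. The weaker probe set had signals of 659 (1L), 1187 (1R), 784 (4L) and 1141 (7L) in KO lenses, against 1165 (2L), 1397 (5L) and 851 (6L) in WT lenses, and there 5L was the highest by 1.18 times. The highest lens had 1.86 times the signal of the lowest at the brighter probe set, against 5.84 times for Rpe65.

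Stra6, the membrane receptor that takes up retinol from its carrier in blood, was close to background in both groups. Its signals were 58.3 (1L), 44.4 (1R), 63.8 (4L) and 39.2 (7L) in KO lenses, against 30.4 (2L), 85.8 (5L) and 79.0 (6L) in WT lenses. Each lens lay above the highest bacterial control of its own array, but 2 of 4 KO and 2 of 3 WT lenses lay above the highest control of any array. The log2 difference was -0.32 (SE 0.41, unadjusted p = 0.458).

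Rgr, an opsin that isomerises retinal in the light and is found in pigment epithelium and Müller glia, had the signals 190 (1L), 587 (1R), 375 (4L) and 565 (7L) in KO lenses, against 544 (2L), 1179 (5L) and 656 (6L) in WT lenses. The groups overlapped, since 1R and 7L lay above 2L. The level was 8.74 ± 0.38 in KO and 9.57 ± 0.62 in WT animals (log2 scale; SD, n = 3), with a log2 difference of -0.83 (SE 0.34, unadjusted 95% interval -1.59 to -0.06, limma unadjusted p = 0.0368). Lens 1R had 3.09 times the signal of lens 1L from the same mouse, a wider gap than between the group means. The log2 difference was -0.49 without WT animal 5 and -0.56 with the right lens alone standing for KO animal 1 (unadjusted p = 0.176 and 0.130).

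Rlbp1, the binding protein that carries 11-cis retinoids and is shared by pigment epithelium and Müller glia, was the member with higher values in KO. Its signals were 1324 (1L), 794 (1R), 957 (4L) and 988 (7L) in KO lenses and 793 (2L), 714 (5L) and 643 (6L) in WT lenses. The KO lenses all lay above the WT lenses, but 1R and 2L were all but equal. The level was 9.98 ± 0.05 in KO and 9.51 ± 0.08 in WT animals (log2 scale; SD, n = 3), a log2 difference of 0.47 (SE 0.20, unadjusted 95% interval 0.02 to 0.92, limma unadjusted p = 0.0415, adjusted p = 0.99988). Lens 1L, lowest of all lenses at Rpe65, Rgr, Rdh5 and the brighter Lrat probe set, was the highest at Rlbp1. The difference was 0.35 with the right lens alone for KO animal 1 and 0.37 with median centring (unadjusted p = 0.145 and 0.113).

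**Figure D2:**
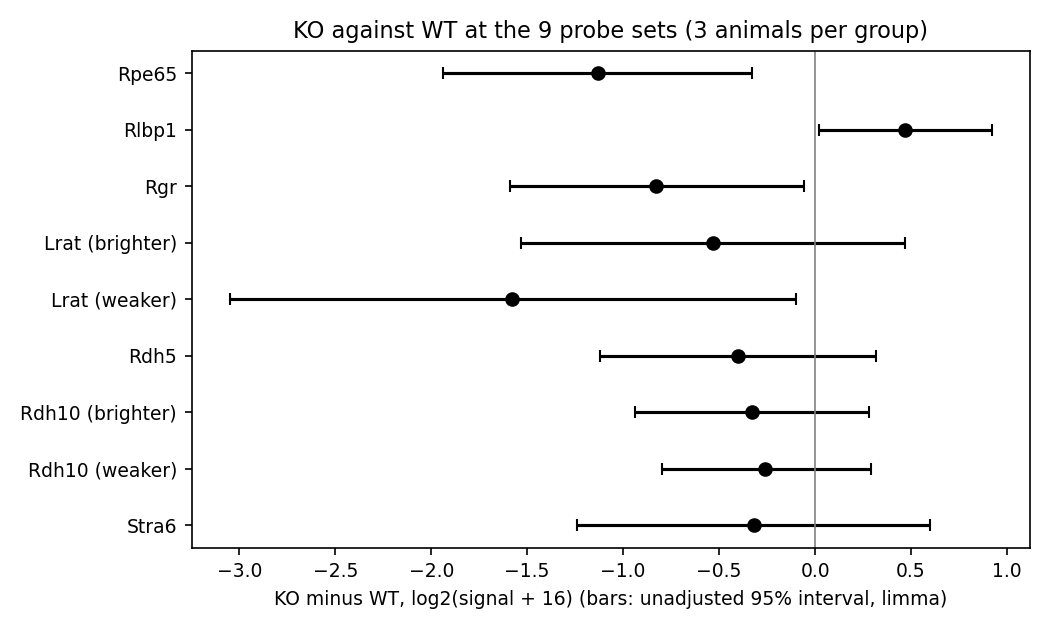
Difference between KO and WT animals in log2(signal + 16) for each probe set, with points for the estimate and bars for the unadjusted 95% interval from limma (3 animals per group). Rlbp1 at 0.47 is the one point right of 0, and the intervals of Rpe65, Rgr, the weaker Lrat probe set and Rlbp1 do not reach 0, although no adjusted p was under 0.05.

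WT lens 5L and KO lens 1L held most of the extreme values. WT lens 5L was the highest of the 7 lenses at 7 of the 9 probe sets, against 11.3% of all probe sets. Its Rpe65 signal was 2.07 times, its Rgr signal 1.80 times, its Rdh5 signal 1.94 times and its signal at the brighter Lrat probe set 2.22 times that of the next lens. Averaged over the brightest probe set of each of the 7 genes, 5L lay 0.79 above the mean of the animals on the log2 scale, and 1L lay at -0.58 from it. The other 5 lenses lay between -0.20 and -0.01. Without WT animal 5 the number of probe sets with an unadjusted p under 0.05 was 0, and without KO animal 1, KO animal 4 or WT animal 6 it was 1. Without KO animal 7, the only male, or WT animal 2 it was 4.

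**Figure D3:**
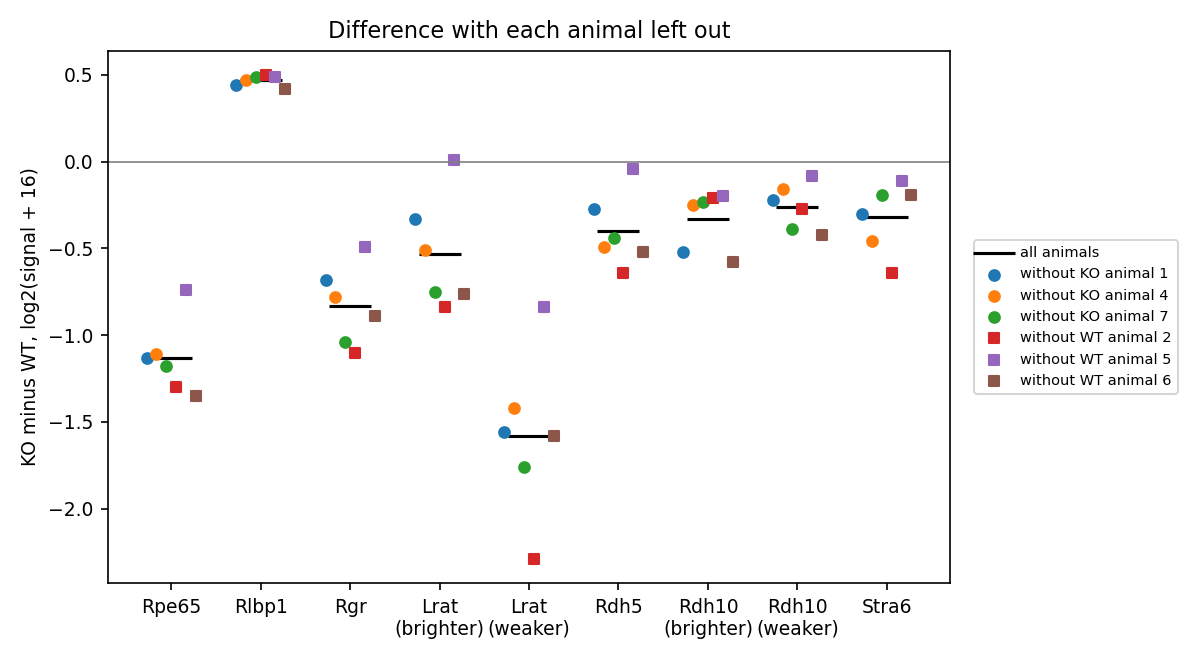
Log2 difference, KO minus WT, at each probe set with all animals (black bar) and with 1 animal left out (coloured points, circles for KO and squares for WT animals). Leaving out WT animal 5 moves Rpe65 to -0.74, Rgr to -0.49, Rdh5 to -0.04 and the brighter Lrat probe set to 0.01, while Rlbp1 stays between 0.42 and 0.50.

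The lenses of KO animal 1, which share genotype and mouse, gave a measure of spread between captures. They differed by more than the KO and WT means at 6 of the 9 probe sets, against 68.5% of all probe sets, a share near the background. The right lens had the higher level at 6 probe sets, by 1.61 at Rgr, 1.21 at the brighter Lrat probe set and 1.09 at Rpe65 on the log2 scale. It had the lower level at Rlbp1, by a log2 difference of -0.75. Right lenses of the other animals were not analysed here.

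Marker genes of the tissues near the lens differed among themselves in which lenses they were highest. The 10 markers of pigment epithelium fixed for comparison averaged 0.20 above the mean in 5L and -0.33 in 1L on the log2 scale, the same ends as the members. Of these 10, 3 had higher and 7 lower values in KO (median log2 difference -0.11), against 51.6% of all probe sets lower. An unadjusted p under 0.05 was reached by 0, against 4.06% of all probe sets. The median was -0.15 to -0.04 with each animal left out. The highest lens was 5L for 3 of the 10, against 11.3% of all probe sets, and Cdh3, a cadherin, was lowest there at 53.2. Mertk, a receptor for the uptake of photoreceptor debris, was highest in 6L, with 572 to 745 in KO lenses and 660 to 1024 in WT lenses. The smallest p was that of Trpm1, a cation channel, which was highest in 7L and had a log2 difference of 0.58 (SE 0.29, unadjusted p = 0.0713). Its signals were 659 to 1535 in KO lenses and 540 to 984 in WT lenses. Ttr, the retinol carrier transthyretin that pigment epithelium secretes and that is also in the list of retinoid binding and transport, was highest in 5L at a signal of 36627, against 13660 to 23344 in KO lenses and 9128 and 20004 in the other WT lenses. Slc16a8, a lactate transporter of pigment epithelium, was also highest in 5L at 386, with 135 to 176 in KO lenses and 152 and 212 in the other WT lenses. Best1, a chloride channel of this epithelium, was the remaining marker highest in 5L and was near background, with 9.16 to 44.2 in KO lenses and 18.5 to 59.1 in WT lenses. The part of this epithelium in the members' values was not tested.

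Pigment cell genes followed another order of lenses. Of 10 measured, 8 were highest in KO lens 7L and 0 in 5L, where 11.3% of all probe sets were highest. The share of all probe sets highest in 7L was not computed. Higher values in KO were found for 8 of 10, against 48.4% of all probe sets (median log2 difference 0.69, range -0.24 to 1.06). An unadjusted p under 0.05 was reached by 2 of these, against 2.24% of all probe sets in that direction. That median was 0.26 without KO animal 7 and 0.27 without WT animal 6, against 1.03 without KO animal 1 and 1.05 without WT animal 2, and 0.30 with array weights. The 2 were Mlana, a melanosome protein (log2 difference 0.92, unadjusted p = 0.0288), and Gpnmb, a membrane glycoprotein of melanosomes (1.01, unadjusted p = 0.0292). These counts are a description, since the genes share lenses and the list was chosen with earlier results of these data known. Tyr, the first enzyme of melanin synthesis, had a signal of 2686 in 7L, 529 to 758 in the other KO lenses and 237 to 1053 in WT lenses. The summed signal of the list ran from 18370 to 49984 in KO lenses and from 11416 to 29320 in WT lenses. Mean levels of this list and of Rpe65 over the 6 animals had a Pearson r of -0.29 (exact permutation test, two-sided, p = 0.540) and a Spearman rho of -0.26 (exact permutation p = 0.658), with r at -0.34 without KO animal 4 and WT animal 5. For the pigment epithelium markers and Rpe65, r was 0.73 (exact permutation p = 0.114) and rho 0.31 (exact permutation p = 0.564), and r was 0.18 without those animals.

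Photoreceptor markers shared the high value of 5L with the members but not the low value of 1L. They were highest in 5L for 12 of 18 genes, against 11.3% of all probe sets. The list averaged 0.59 in 5L and 0.45 in 1L above the mean on the log2 scale. Of the 18, 15 had lower values in KO, against 51.6% of all probe sets (median log2 difference -0.23). An unadjusted p under 0.05 was reached by 3 of these, against 1.81% of all probe sets in that direction. The summed signal was 65681 to 112603 in KO lenses and 60274 to 119793 in WT lenses. That median was 0.01 without WT animal 5 and -0.04 without WT animal 2, against -0.51 without WT animal 6 and -0.12 without KO animal 7. By smallest p the 3 were Pde6g, a rod phosphodiesterase subunit, and the cone opsins Opn1mw and Opn1sw. Their log2 differences were -0.64 (SE 0.26), -0.77 (SE 0.34) and -1.13 (SE 0.49). KO and WT lenses overlapped at all 3. The lenses of KO animal 1 lay further apart than the group means, by -2.26, -2.05 and -1.84 (right minus left, log2 scale). Müller glia markers lay the other way from the photoreceptor markers. Of 8, 6 had higher values in KO, against 48.4% of all probe sets (median log2 difference 0.50). At an unadjusted p under 0.05 there were 4 of these, against 2.24% of all probe sets in that direction. The 2 lower in KO were Dkk3 (-0.13), the brightest of the list, and Car14 (-0.27). The summed signal, to which Dkk3 gave the most, was 37381 to 44343 in KO lenses and 30890 to 41485 in WT lenses. Gfap, a filament protein that glia make under stress, had a log2 difference of 1.47 (SE 0.33), Abca8a, a transporter, one of 0.74 (SE 0.20) and Slc1a3, the glutamate transporter of Müller glia, one of 1.16 (SE 0.45). None of these passed the adjustment in limma (adjusted p = 0.99988). Genes of a list were measured in the same lenses, and the lists were chosen with earlier results of these data known. The counts for Müller glia and photoreceptor markers are therefore a description. The 5 markers of ciliary and iris epithelium had a median of 0.67, and the smallest p among them was that of Col9a1, a cartilage-type collagen chain, at a log2 difference of 0.67 (SE 0.22, unadjusted p = 0.0146). Lens markers had a median of -0.02 (-0.06 to 0.08 with each animal left out), with 5 of 10 higher in KO.

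**Figure D4:**
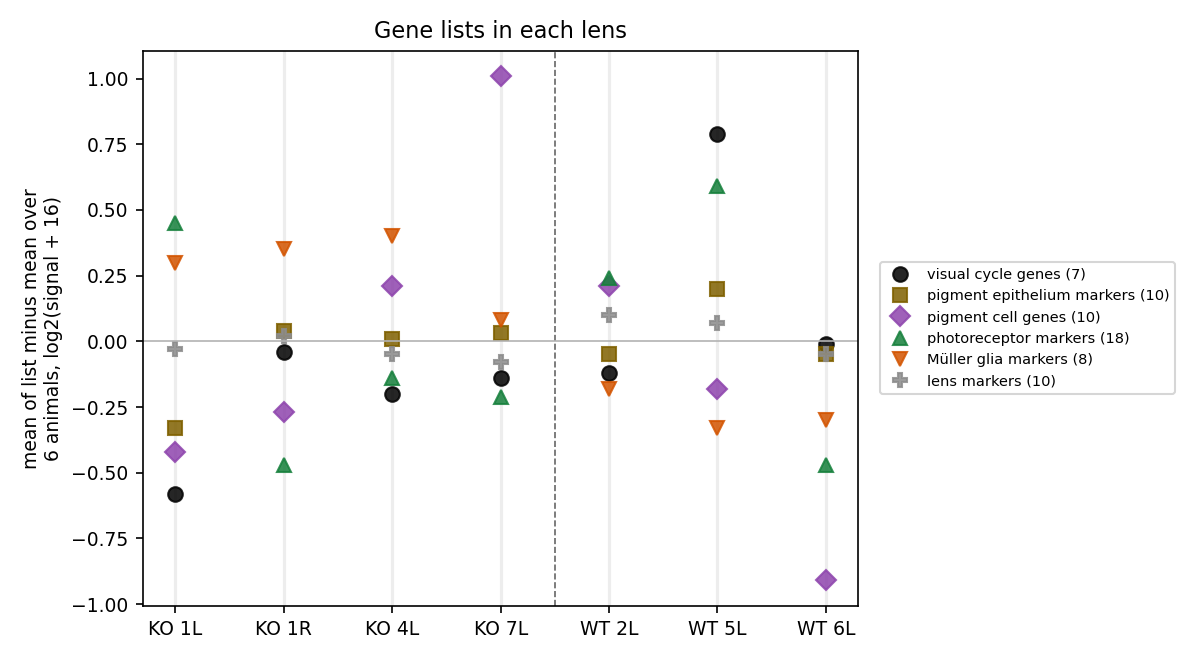
Mean level of each gene list in each lens, as the difference from its mean over the 6 animals in log2(signal + 16), with KO lenses left of the dashed line and WT lenses right of it. The visual cycle genes (black) are highest in 5L at 0.79 and lowest in 1L at -0.58, pigment cell genes (purple) peak in 7L at 1.01, and Müller glia markers (orange) lie above 0 in the 4 KO lenses and below 0 in the 3 WT lenses.

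Across the 6 animals, 20 relations were computed, of Rpe65 with the other 8 probe sets and with 6 marker lists, and of Rlbp1 with the same lists. Rpe65 and Rgr had a Pearson r of 0.92 (exact permutation test, two-sided, p = 0.0222, adjusted p = 0.146) and a Spearman rho of 0.77 (exact permutation p = 0.103, adjusted p = 0.411). Without KO animal 4 and WT animal 5, those farthest from the median of Rpe65, r was 0.65. For Rpe65 and the brighter Lrat probe set r was 0.82 (exact permutation p = 0.0694) and rho 0.49 (exact permutation p = 0.356), and without those animals r was 0.07, so that relation rests on them. For Rdh5, r was 0.84 (exact permutation p = 0.0722) and rho 0.26 (exact permutation p = 0.658), and r was 0.46 without them.

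Rlbp1 and the Müller glia list had an r of 0.94 (exact permutation p = 0.0236, adjusted p = 0.146) and a rho of 0.89 (exact permutation p = 0.0333, adjusted p = 0.333), and r was 0.92 without KO animal 1 and WT animal 6. With the pigment epithelium list Rlbp1 had an r of -0.30 (exact permutation p = 0.615) and a rho of -0.37 (exact permutation p = 0.497), and r was again -0.30 without those animals. Rpe65 and the Müller glia list had an r of -0.84 (exact permutation p = 0.0236, adjusted p = 0.146) and a rho of -0.94 (exact permutation p = 0.0167, adjusted p = 0.333), and r was -0.94 without KO animal 4 and WT animal 5. No relation passed the adjustment over the 20. Rlbp1 and the Müller list both lay higher in KO, while Rpe65 and Rgr lay lower. The permutations ran over all animals regardless of group, so relations among these cannot be told apart from the group difference. Leaving out the named animals kept both groups in place and does not change that. Groups of 3 animals are too few for a value within KO or within WT.

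The weaker Lrat probe set varied most over the 7 lenses (SD 1.22 on the log2 scale), and the genes whose levels were most like it over those lenses were Kin, Mtrr, Sfrp2, Klhl11 and Cntnap4. Their Pearson r over the 7 lenses was 0.961 to 0.983, given as a description, since each was picked as highest among all named probe sets above the median level and all peaked in 5L. Sfrp2, a secreted Wnt inhibitor, had signals of 66.9 to 139 in KO lenses and 104 to 429 in WT lenses.

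Other genes of retinoid handling gave no call. In the list of retinoid binding and transport, 0 of 8 measured genes passed the test, with 3 above and 5 below 0 in KO minus WT and a median log2 difference of -0.18 (0.07 with each gene's probe sets averaged, 0.04 without WT animal 5). Crabp1, a cellular retinoic acid binding protein, had signals of 27.3 to 64.1 in KO lenses and 5.38 to 18.7 in WT lenses. It lay above the highest control of its array in 2 of 4 KO and 0 of 3 WT lenses. Its log2 difference of 0.74 (SE 0.34) is therefore not well resolved. Rbp2, a cellular retinol binding protein, was near background, with signals of at most 33.5 in KO lenses and at most 60.2 in WT lenses. It exceeded the highest control of its array in 1 of 4 KO and 2 of 3 WT lenses, so its log2 difference of -0.70 (SE 0.38) is not well resolved. Rbp3, the carrier between photoreceptors and pigment epithelium, ran from 1809 to 4201 in KO lenses and from 2772 to 4762 in WT lenses, a log2 difference of -0.45 (SE 0.25).

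Of 14 other retinol and retinal oxidoreductases, the values were higher in KO for 6 and lower for 8 (median -0.18), and 0 passed the adjustment. Adh1, an alcohol dehydrogenase that also oxidises retinol, had signals of 1113 (1L), 1840 (1R), 822 (4L) and 197 (7L) in KO lenses, against 2095 (2L), 2294 (5L) and 1082 (6L) in WT lenses. Its log2 difference was -1.44 (SE 0.61, limma unadjusted p = 0.0391), and the low lens was that of the male. Rdh12, a retinal reductase of photoreceptors, differed by -0.56 (SE 0.27) and Adh7, another alcohol dehydrogenase, by -0.75 (SE 0.44). Rdh1, Rdh7, Rdh16 and Adh4 did not exceed 45.5, the brightest bacterial control, in any lens.

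For retinoic acid synthesis and breakdown, 2 of 8 genes had higher and 6 lower values in KO, against 51.6% of all probe sets lower. The median was -0.43, and -0.21 without KO animal 4 or -0.27 without KO animal 7. An unadjusted p under 0.05 was reached by 0, against 4.06% of all probe sets. Aldh1a1, a retinaldehyde dehydrogenase that is abundant in the eye, was bright in all lenses, with signals of 22429 to 29597 in KO lenses and 19300 to 33677 in WT lenses. Aldh1a2, a related enzyme, ran from 91.8 to 215 in KO lenses and from 34.6 to 100 in WT lenses, a log2 difference of 0.89 (SE 0.44). Aldh8a1, an aldehyde dehydrogenase, had signals of 6.26 to 26.8 in KO lenses, where 0 of 4 exceeded the highest control of its array, and 3.06 to 53.6 in WT lenses, where 2 of 3 did. Cyp26b1, which degrades retinoic acid, had a log2 difference of -0.61 (SE 0.43). Of 6 retinoid receptors, the KO level was higher for 3 and lower for 3, with differences from -0.22 to 0.13 around a median of -0.05 (-0.16 to 0.03 with each animal left out). Rxrg differed by -0.21 (SE 0.28), Rxrb by -0.14 (SE 0.27), and Rara did not exceed 45.5 in any lens.

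**Figure D5:**
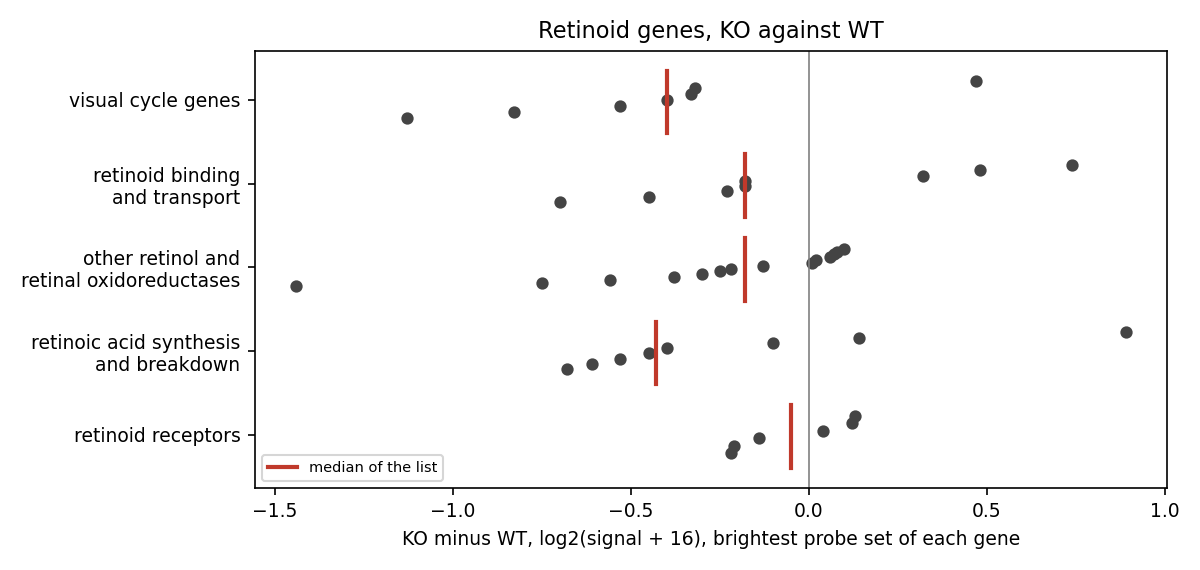
Log2 difference, KO minus WT, of the brightest probe set of each measured gene (points) in the visual cycle genes and 4 lists of other retinoid genes, with the median of each list as a red line. The medians are -0.40 for the visual cycle genes, -0.18, -0.18, -0.43 and -0.05 for the lists below them, and no point passed the adjusted test; some points, such as Aldh8a1 at -0.68, are of genes near background.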

How the data were processed

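Expression was measured in 7 lenses of 6 mice, 1 Affymetrix mouse array per lens. The deposited values are linear intensity values, 1 summary signal per probe set. Per the labels' protocols, cells were laser-captured from stained cryosections and their RNA was amplified in 2 cycles and labelled with biotin. The software behind the summary and any background correction were not given in the sources used here. The mean over the middle of each array, 2% trimmed off both ends, came to 500.0 on all of them, so the table was already scaled. Arrays carry no read depth, so their number limits the precision.

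Of 45101 probe sets, 64 controls were left out and 45037 were tested with no filter on low values. Signals were turned into log2(signal + 16), which understates differences of weak probe sets, and quantile normalized. The test between KO and WT used limma 3.58.1 (lmFit, eBayes with an intensity trend, two-sided) in R 4.3.3, and p-values were adjusted over the 45037 by Benjamini-Hochberg (threshold 0.05). Background was the highest of 27 bacterial controls on each array. Gene symbols were those of the platform annotation (1 symbol for 34945 probe sets, several for 932, none for 9160); 34741 matched the reference by gene number and 0 were updated. In other lists a gene was read by its brightest probe set on average. The rule for named genes took all members, Sparc, up to 3 genes of each list with the smallest p, markers that show whether a tissue is detected, and the 5 genes most like the most variable member probe set. Relations used exact permutation tests in SciPy 1.17.1. The code was tested on simulated data. The members and lists were chosen with earlier results of these data known. Alternatives were the 7 lenses taken as independent, KO animal 1 by its left or right lens alone, median centring, signals as deposited, a filter on low values, no trend, array weights, pseudocounts of 1 and 64, probe sets averaged per gene, the median control as background and leaving out each animal. No paired analysis was possible because KO and WT animals share no numbers. A random block for the animal was not run, since 1 animal with both lenses gave no estimate of the correlation.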

Additional observations from a re-analysis of the deposited data

Results flagged for a closer look

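In the 4 KO lenses, 19 values were tested for a lens far from the others, the 9 probe sets and 10 list means. With independent lenses chance marks about 1 in 20. Lenses 1L and 1R came from 1 mouse, so that rate is only a rough guide here. Lens 1R stood apart for the mean of retinoid receptors, at -0.33 from the mean of the animals on the log2 scale, against 0.03 to 0.05 in the other KO lenses. Lens 1L stood apart for the mean of pigment epithelium markers, also at -0.33, against 0.01 to 0.04 in the other KO lenses. None of the 9 visual cycle probe sets met this criterion in KO. The WT group of 3 lenses, with 5L in it, is too small for it.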

How the results depend on the processing

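No visual cycle probe set passed an adjusted p of 0.05 under any of the alternatives run, where the lowest adjusted p was 0.595 (Rpe65). The sign of the log2 difference was kept at 8 of the 9 probe sets, and at the brighter Lrat probe set it turned to 0.01 without WT animal 5 (-0.84 to 0.01 with each animal left out). Rpe65 ranged from -1.35 to -0.74, Rgr from -1.14 to -0.49 and Rlbp1 from 0.35 to 0.59. The number with an unadjusted p under 0.05, 4 of 9, was 2 with the 7 lenses as independent samples, with KO animal 1 read by 1R alone, with the filter on low values (which removed the weaker Lrat probe set and Stra6) and with no intensity trend, 5 with array weights (the brighter Lrat probe set joined, at -0.95, unadjusted p = 0.0486) and 0 to 4 with each animal left out. In all, 3 probe sets passed in the table, and 2 with no intensity trend, with 2 to 3 when an animal was left out. The unadjusted count over all probe sets was 1828, and 3150 with array weights. It was 770 with the filter, which kept only probe sets above the median level, so that count is out of fewer probe sets. Scaling moved the median of all probe sets to -0.07 (median centring) and 0.03 (signals as deposited), from -0.01. Among the lists, the median of retinoid binding and transport was 0.07 with probe sets averaged per gene and -0.26 to 0.04 with an animal left out. For the other oxidoreductases it was -0.28 with a pseudocount of 1 and -0.06 with 64. For retinoic acid synthesis and breakdown it was -0.61 with a pseudocount of 1, -0.18 with 64, -0.10 with the filter, -0.20 with averaged probe sets and -0.37 to -0.21 with an animal left out. For pigment cell genes it was 0.26 to 1.05 and for photoreceptor markers -0.51 to 0.01 with an animal left out. With averaged probe sets it was 0.35 for Müller glia and 0.15 for ciliary and iris epithelium markers. For lens markers it was 0.08 with KO animal 1 read by 1R alone and -0.06 to 0.08 with an animal left out. The cause of these moves was not tested. Of the 63 readings of member probe sets, 61 lay above the highest bacterial control of their array. Weak signal limits Stra6 and the weaker Lrat probe set.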
